A study of Arabidopsis thaliana with 12 samples.

Results

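Nuclear genes for light harvesting, chlorophyll synthesis and greening were followed in dark-grown Arabidopsis thaliana seedlings of 4 genotypes. They comprise 41 of the 27827 loci on the arrays, chosen by locus identifier as 14 LHCB and 6 LHCA antenna genes, 4 RBCS genes for the small subunit of Rubisco, 2 ELIP genes, 7 genes of chlorophyll synthesis, 4 activators of greening and 4 PIF genes. All 41 were found in the table, and all 41 entered the tests, since no filter on low values was applied. The genotypes, with 3 arrays each, were wild-type Col-0, the transformant PMEIox in the Col-0 background, which overexpresses the pectin methylesterase inhibitor PMEI5, and cnu1 and cnu2, suppressor mutants that were isolated in PMEIox and carry the same transgene. From what is known of the study, cnu1 carries a mutation in BRI1, the brassinosteroid receptor, and cnu2 a mutation in RLP44, a receptor-like protein. The promoter of the transgene and the number of independent lines behind each genotype are not given in the sources used here. Every group was treated alike, with 48 h in the cold and 6 h of white light at 100 µmol, then 4 days of darkness at 22 °C, and whole seedlings were harvested under green safe light. The design text places the 3 biological replicates in successive weeks, and the labels name the arrays A, B and C without tying a letter to a week.

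Seedlings that germinate in darkness elongate and keep their plastids as etioplasts. PIF transcription factors restrain greening in that state, and the COP1 and SPA proteins send the activators HY5 and HYH to degradation. Protochlorophyllide oxidoreductases hold the last precursor of the pigment until light lets them reduce it, and GLK factors and HY5 switch on the antenna and chlorophyll genes once light arrives. These transcripts are therefore read here in the state before greening, apart from the short light pulse that every genotype received.

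Values are log2 intensities, 1 per locus and array, and every array holds the same set of sorted values. Precision is limited by the 3 arrays per genotype, with a standard error of 0.14 at the median locus for a difference between a pair of genotypes. The transgene was checked first. PMEI5 (AT2G31430) read 8.19, 5.05 and 4.49 on the Col-0 arrays A, B and C, and between 12.53 and 12.69 on the other 9 arrays. Array A of Col-0 thus stood above both other Col-0 arrays for the overexpressed gene, which goes against its wild-type label, and counts are given with and without it. BRI1 differed between PMEIox and Col-0 by -0.13 and RLP44 by -0.08, and neither passed the test. RLP44 lay in the lowest 20% of values. Against PMEIox, BRI1 was higher by 0.34 in cnu1 (limma, adjusted p = 0.0524) and by 0.32 in cnu2 (adjusted p = 0.0935). The groups did not overlap in either case, and neither difference passed. PORA (AT5G54190), whose transcript is known to accumulate in darkness and to be lost in light, read between 8.36 and 9.46 on all 12 arrays. In whole seedlings, fewer cells of a type and less RNA per cell cannot be told apart.

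Most of the greening genes did not pass the test in any comparison. In PMEIox against Col-0, 3 of 41 members passed limma's test at an adjusted p under 0.05, all of them lower, namely HYH, ELIP2 and PIF4. That share, 7.32%, stands beside 5.25% of all loci called in either direction and 2.46% called lower, and a count of 3 does not set the members apart. Against PMEIox, PIF4 was higher in both suppressors, ELIP2 was higher in cnu1 and PIF3 was lower in cnu1, giving 3 of 41 in cnu1 (6.44% of all loci, 3.54% higher and 2.9% lower) and 1 of 41 in cnu2 (3.25% of all loci, 1.78% higher). Against Col-0, 0 of 41 passed in cnu1 (0.622% of all loci) and 0 of 41 in cnu2 (0.187% of all loci), with 12 and 19 members at an unadjusted p under 0.05, where 13.9% and 11.3% of all loci were. Between cnu1 and cnu2, 0 of 41 passed (0.568% of all loci), with 6 at an unadjusted p under 0.05 (8.55% of all loci). The moderated F-test over the 4 genotypes called HYH, ELIP2 and PIF4, 3 of 41, beside 6.02% of all loci. Without array A of Col-0 the counts in these 6 comparisons were 3, 2, 1, 0, 0 and 0, and the F-test called 1 member. The 2 in cnu1 against PMEIox were then PIF4 and LHCB1.4, so ELIP2 and PIF3 were no longer called.

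Seed reserve transcripts moved with PMEIox, and 10 of 10 markers passed as higher against Col-0 (median 2.47), where 775 of 27827 loci did. Against PMEIox, 9 of 10 passed as lower in cnu1 (2.9% of all loci) and 9 of 10 in cnu2 (1.48% of all loci), with medians of -2.51 and -2.26. All 10 markers were lower than in PMEIox without overlap in cnu1 (12.9% of all loci) and in cnu2 (11.4% of all loci). Their summed level ran from 9.17 to 9.43 on the log2 scale in Col-0, from 12.17 to 12.50 in PMEIox, from 8.99 to 10.54 in cnu1 and from 9.12 to 10.52 in cnu2, and SESA1 lay in the lowest 20% of values in Col-0 and cnu2. Sums were taken on the linear scale, so the strongest markers weighed most. Of 8 root markers 1 rose in PMEIox, EXPA18 (775 of 27827 loci rose). Their summed level ran from 13.00 to 13.20 in Col-0, from 12.92 to 12.96 in PMEIox, from 13.17 to 13.38 in cnu1 and from 12.95 to 13.14 in cnu2. PYK10 alone read from 12.87 to 13.34 over the arrays, so the root sum mostly followed this gene. COBL9 lay in the lowest 20% of values outside cnu1. The part of either marker list in the falls of HYH, ELIP2 and PIF4 was not tested.

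**Figure D1:**
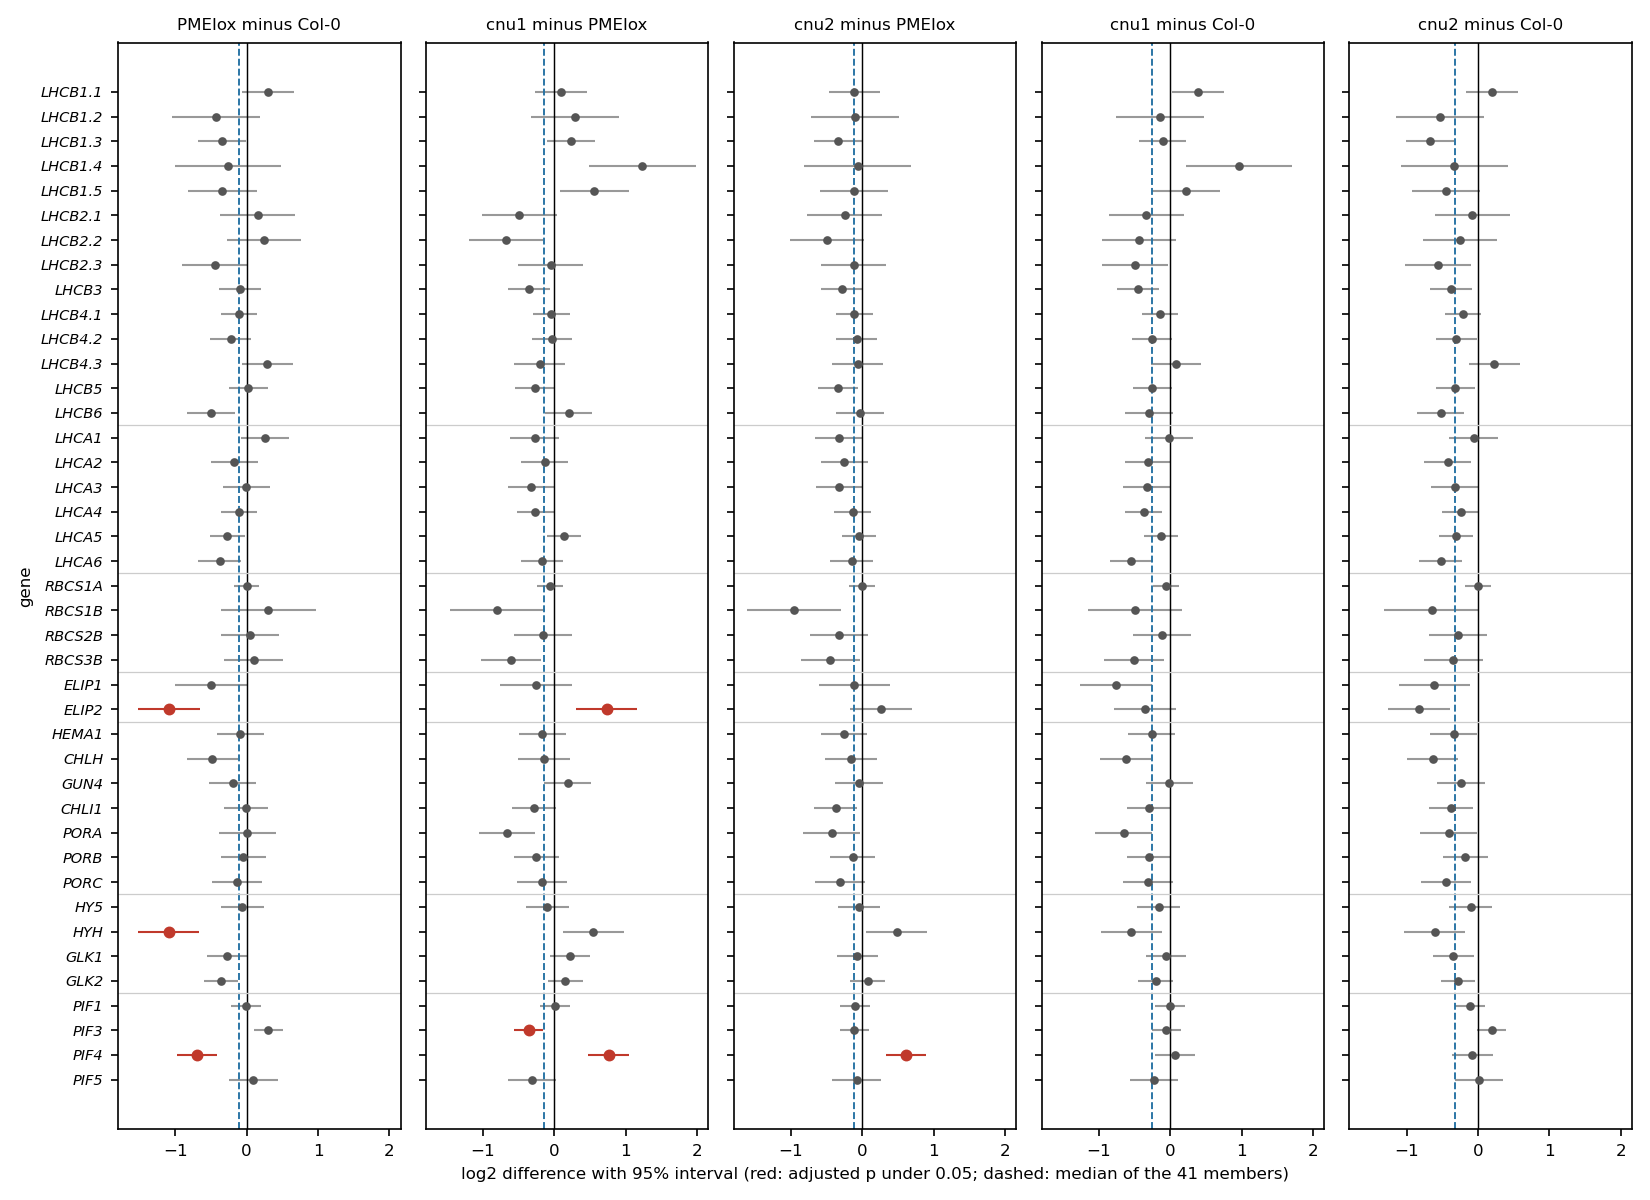
Log2 differences (x axis, with 95% intervals) of the 41 members (y axis, in order of role) in 5 comparisons of genotypes with 3 arrays each. Red points passed limma's test at an adjusted p under 0.05 and the dashed line is the median of the members, which lay at -0.10 for PMEIox minus Col-0 and at -0.32 for cnu2 minus Col-0.

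Among the activators of greening, HYH was the gene that changed in PMEIox. HYH (AT3G17609) encodes a bZIP factor close to HY5 that acts with it in the light response. On arrays A, B and C in turn, HYH read 6.76, 7.16 and 6.32 in Col-0, 5.57, 5.63 and 5.77 in PMEIox, 6.25, 6.50 and 5.86 in cnu1 and 6.12, 6.21 and 6.08 in cnu2. All 3 PMEIox values lay below all 3 Col-0 values, and the suppressor arrays lay between the PMEIox range and the Col-0 mean. HYH fell in PMEIox by 1.09 ± 0.20 (SE, adjusted p = 0.00639), a 2.13-fold difference, from 6.75 ± 0.42 to 5.66 ± 0.10 (SD, n = 3 each). Its differences from PMEIox were 0.54 ± 0.20 (SE, adjusted p = 0.133) in cnu1 and 0.48 ± 0.20 (SE, adjusted p = 0.227) in cnu2, without overlap in either case and without passing the test. Compared with Col-0, HYH differed by -0.54 ± 0.20 (SE, adjusted p = 0.23) in cnu1 and -0.61 ± 0.20 (SE, adjusted p = 0.26) in cnu2.

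HY5 (AT5G11260), the bZIP factor that HYH resembles and the main activator of light-induced genes, gave no such difference. It read 6.98, 6.79 and 6.65 in Col-0, 6.68, 6.96 and 6.59 in PMEIox, 6.81, 6.71 and 6.42 in cnu1 and 6.80, 6.57 and 6.75 in cnu2, so the ranges of all 4 genotypes overlapped. The 95% interval of PMEIox minus Col-0 ran from -0.36 to 0.24 on the log2 scale. GLK1 (AT2G20570) and GLK2 (AT5G44190) encode paired factors that switch on antenna and chlorophyll genes. For GLK1 the arrays read 7.32, 6.92 and 7.27 in Col-0, 6.99, 6.86 and 6.85 in PMEIox, 7.21, 7.20 and 6.93 in cnu1 and 6.69, 6.80 and 7.0 in cnu2, with overlapping Col-0 and PMEIox ranges. GLK2 stood at 9.04 ± 0.16 in Col-0 and 8.68 ± 0.10 in PMEIox (SD, n = 3 each), and its difference of -0.36 ± 0.11 (SE, adjusted p = 0.0945) did not pass, although the groups did not overlap. Among fits without the replicate letter, it was called when the lowest 40% of loci were left out and with trend and robust settings. The median over the 4 activators was -0.32 in PMEIox against Col-0, where the median over all loci was 0.00.

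PIF4 was lower in PMEIox than in each of the other genotypes. PIF4 (AT2G43010) encodes a bHLH factor that promotes elongation and binds phytochrome B. The arrays read 7.48, 7.76 and 7.37 in Col-0, 6.72, 6.91 and 6.90 in PMEIox, 7.46, 7.74 and 7.62 in cnu1 and 7.28, 7.62 and 7.47 in cnu2. No PMEIox array reached the lowest value of any other genotype, and the ranges of Col-0, cnu1 and cnu2 overlapped. PIF4 fell in PMEIox by 0.69 ± 0.13 (SE, adjusted p = 0.00835). Against PMEIox it rose by 0.76 ± 0.13 (SE, adjusted p = 0.00382) in cnu1 and by 0.62 ± 0.13 (SE, adjusted p = 0.026) in cnu2. These comparisons share the PMEIox arrays, so they are not independent of the first. Against Col-0 the 95% interval ran from -0.22 to 0.35 in cnu1 and from -0.36 to 0.21 in cnu2. In cnu2 the call was lost in 5 of 12 omissions of an array, namely each PMEIox array, cnu2 B and cnu2 C, where the adjusted p lay between 0.0554 and 0.103, and it was lost with the compared genotypes alone (adjusted p = 0.0565).

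PIF3 fell in cnu1 against PMEIox, where PIF4 rose. PIF3 (AT1G09530) encodes a bHLH factor that restrains greening genes in darkness. Its values were 8.79, 8.78 and 8.65 in Col-0, 9.07, 8.97 and 9.09 in PMEIox, 8.77, 8.73 and 8.55 in cnu1 and 9.02, 8.92 and 8.87 in cnu2. The PMEIox values lay above all Col-0 and all cnu1 values, and those of cnu2 overlapped with PMEIox. PIF3 fell in cnu1 against PMEIox by 0.36 ± 0.09 (SE, adjusted p = 0.041), while the difference between PMEIox and Col-0 was 0.30 ± 0.09 (SE, adjusted p = 0.0889) and did not pass, except when the lowest 40% of loci were left out and with trend and robust settings. In cnu2 against PMEIox the difference was -0.11 ± 0.09 (SE, adjusted p = 0.603), and cnu1 minus cnu2, the direct test, gave -0.25 ± 0.09 (SE, adjusted p = 0.444). The cnu1 call of PIF3 ended in 10 of 12 omissions of an array, those of all arrays other than Col-0 C and cnu2 C, with adjusted p up to 0.153.

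The other PIF genes passed in no comparison. PIF1 (AT2G20180), which restrains chlorophyll synthesis in darkness, read 9.21, 9.11 and 9.14 in Col-0, 9.22, 9.0 and 9.22 in PMEIox, 9.15, 9.08 and 9.25 in cnu1 and 9.03, 9.13 and 8.96 in cnu2. Its 12 values spanned 0.28, and the interval of PMEIox minus Col-0 was -0.21 to 0.20. PIF5 (AT3G59060), a close relative of PIF4, differed by 0.10 between PMEIox and Col-0 and by -0.32 ± 0.16 (SE, adjusted p = 0.291) between cnu1 and PMEIox.

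**Figure D2:**
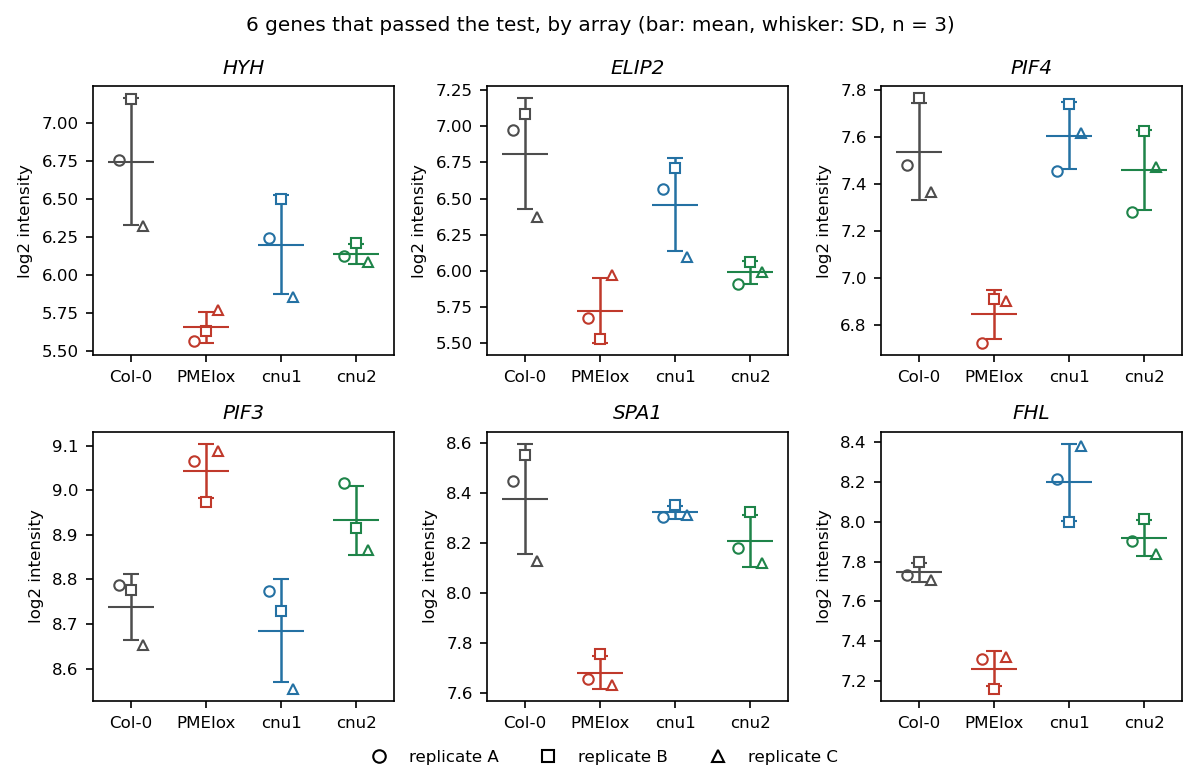
Log2 intensity (y axis, each panel with its own range that does not start at 0) of 6 genes in the 4 genotypes (x axis). Points are arrays, bars are means and whiskers SD with n = 3, and the PMEIox arrays are the lowest for SPA1, FHL and PIF4 and the highest, with overlap to cnu2, for PIF3.

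ELIP2 was the only one of the 33 antenna, Rubisco, ELIP and chlorophyll synthesis genes to pass the test in these comparisons. ELIP1 and ELIP2 encode early light-induced proteins, chlorophyll-binding relatives of the antenna proteins that are known to protect against photo-oxidative damage. ELIP2 (AT4G14690) read 6.98, 7.08 and 6.37 in Col-0, 5.67, 5.53 and 5.97 in PMEIox, 6.57, 6.71 and 6.10 in cnu1 and 5.91, 6.06 and 6.0 in cnu2. Every PMEIox array lay below every Col-0 array, the cnu1 arrays lay above those of PMEIox, and the cnu2 arrays overlapped with PMEIox. ELIP2 fell in PMEIox by 1.08 ± 0.20 (SE, adjusted p = 0.00714) and rose in cnu1 against PMEIox by 0.73 ± 0.20 (SE, adjusted p = 0.0488). Both comparisons use the PMEIox arrays, so they are not independent of each other. In cnu2 the difference from PMEIox was 0.26 ± 0.20 (SE, adjusted p = 0.553). Against Col-0, ELIP2 differed by -0.35 in cnu1 and by -0.82 ± 0.20 (SE, adjusted p = 0.151) in cnu2, the latter without overlap. The cnu2 difference from Col-0 passed only with trend and robust settings. The direct comparison of cnu1 with cnu2 gave 0.47 ± 0.20 (SE, adjusted p = 0.529), so the suppressors were not shown to differ. The cnu1 call was close to the threshold and ended in 9 of 12 omissions of an array, with adjusted p up to 0.161, and remained only without Col-0 B, Col-0 C or cnu1 C.

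ELIP1 (AT3G22840) read 6.55, 7.30 and 6.40 in Col-0, 6.21, 5.94 and 6.61 in PMEIox, 6.29, 5.87 and 5.83 in cnu1 and 5.98, 6.22 and 6.24 in cnu2. Array B of Col-0 was the highest of all 12 arrays, and the Col-0 and PMEIox ranges overlapped. Its difference was -0.50 ± 0.23 (SE, adjusted p = 0.273) between PMEIox and Col-0, -0.75 ± 0.23 (SE, adjusted p = 0.167) between cnu1 and Col-0, and -0.61 ± 0.23 (SE, adjusted p = 0.344) between cnu2 and Col-0. In the last pair of comparisons the groups did not overlap, with the suppressors lower.

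Antenna genes of photosystem II did not pass the test in any of the 6 comparisons. LHCB1, LHCB2 and LHCB3 proteins form the trimers of the major antenna, and LHCB4, LHCB5 and LHCB6 are the minor antenna proteins that join them to the reaction centre. Of the 14 genes, 9 had a lower and 5 a higher mean in PMEIox than in Col-0 (50.9% of all loci had a lower one), with a median difference of -0.16, with LHCB6 lowest and LHCB1.1 highest. LHCB6 (AT1G15820) read 8.01, 8.27 and 7.81 in Col-0, 7.38, 7.60 and 7.62 in PMEIox, 7.85, 7.88 and 7.48 in cnu1 and 7.29, 7.53 and 7.69 in cnu2. The PMEIox arrays lay below those of Col-0 and overlapped with those of both suppressors. The difference was -0.49 ± 0.15 (SE, adjusted p = 0.0908), and it was called when the lowest 40% of loci were left out and with trend and robust settings. LHCB1.1 (AT1G29920) read 2.49, 2.46 and 2.14 in Col-0, 2.56, 2.83 and 2.61 in PMEIox, 3.0, 2.67 and 2.62 in cnu1 and 2.40, 2.92 and 2.35 in cnu2, and differed by 0.30 ± 0.17 (SE, adjusted p = 0.376). LHCB1.1 and LHCB2.3 lie in the lowest 20% of the values on these arrays, under 3.21.

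In cnu1 against PMEIox the LHCB genes spread in both directions. LHCB1.4 (AT2G34430) read 3.59, 4.84 and 4.04 in Col-0, 3.78, 4.08 and 3.81 in PMEIox, 4.84, 5.81 and 4.73 in cnu1 and 3.63, 4.37 and 3.48 in cnu2. Its 3 cnu1 values were above all PMEIox and all cnu2 values, and array B was the highest in every genotype. LHCB1.4 differed by 1.23 ± 0.34 (SE, adjusted p = 0.0528) in cnu1 against PMEIox and by 1.3 ± 0.34 (SE, adjusted p = 0.17) between cnu1 and cnu2, which is the largest difference of any member in each comparison and did not pass. Among fits without the replicate letter, it did pass in cnu1 against PMEIox with centring on the 10 reference genes, with trend and robust settings, with the compared genotypes alone, and without Col-0 A, Col-0 B or cnu2 B. LHCB2.2 (AT2G05070) read 6.60, 7.20 and 6.66 in Col-0, 6.90, 6.93 and 7.36 in PMEIox, 6.36, 6.76 and 6.04 in cnu1 and 6.12, 6.88 and 6.71 in cnu2. Its cnu1 and cnu2 arrays lay below those of PMEIox, with differences of -0.68 ± 0.24 (SE, adjusted p = 0.125) and -0.49 ± 0.24 (SE, adjusted p = 0.325), without overlap.

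All 14 LHCB genes had a mean in cnu2 below that in PMEIox, by 0.03 to 0.49, where 49.9% of all loci had one below. By limma 0 of these differences passed, and 2 had an unadjusted p under 0.05 (16.8% of all loci). LHCB1.3 (AT1G29930) differed by -0.68 ± 0.15 (SE, adjusted p = 0.138) between cnu2 and Col-0, the lowest adjusted p of any member in that comparison, and by -0.11 between cnu1 and Col-0. With trend and robust settings the first passed. LHCB1.3 read 9.90, 10.11 and 9.87 in Col-0, 9.62, 9.56 and 9.69 in PMEIox, 10.05, 9.99 and 9.53 in cnu1 and 9.20, 9.09 and 9.57 in cnu2, so that 2 cnu2 arrays were the lowest of the 12. LHCB3 (AT5G54270) differed from Col-0 by -0.44 ± 0.13 (SE, adjusted p = 0.162) in cnu1 and -0.38 ± 0.13 (SE, adjusted p = 0.304) in cnu2, and LHCB5 (AT4G10340) by -0.25 ± 0.13 (SE, adjusted p = 0.414) and -0.32 ± 0.13 (SE, adjusted p = 0.367). Each of these was without overlap and none passed, although LHCB3 did in cnu1 with trend and robust settings. Neighbouring LHCB1 genes encode near-identical proteins. In the annotation, 6 pairs of members lie next to each other, among them LHCB1.2 with LHCB1.1, LHCB1.1 with LHCB1.3, LHCB1.5 with LHCB1.4 and LHCB2.2 with LHCB2.1, and how the authors' single value per locus handled probes shared by such copies is not given in the sources used here, so single members of these pairs are uncertain.

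Photosystem I antenna genes, 6 in number, likewise had 0 called in the 6 comparisons. LHCA1 to LHCA4 form the antenna belt, and LHCA5 and LHCA6 join photosystem I to the chloroplast NADH dehydrogenase-like complex. LHCA6 (AT1G19150) read 7.46, 7.52 and 7.31 in Col-0, 6.96, 6.98 and 7.23 in PMEIox, 6.96, 7.08 and 6.60 in cnu1 and 6.88, 6.77 and 7.08 in cnu2. The arrays of PMEIox, cnu1 and cnu2 all lay below those of Col-0, with differences of -0.37 ± 0.14 (SE, adjusted p = 0.162), -0.54 ± 0.14 (SE, adjusted p = 0.106) and -0.52 ± 0.14 (SE, adjusted p = 0.185). In cnu1 against Col-0, LHCA6 passed when the lowest 40% of loci were left out and with trend and robust settings. LHCA5 (AT1G45474) read 8.77, 8.66 and 8.56 in Col-0, 8.42, 8.38 and 8.39 in PMEIox, 8.69, 8.62 and 8.30 in cnu1 and 8.30, 8.42 and 8.34 in cnu2. Its PMEIox values were below those of Col-0, with a difference of -0.27 ± 0.11 (SE, adjusted p = 0.213). LHCA3 (AT1G61520), at 7.12, 6.95 and 7.09 in Col-0, 6.97, 7.04 and 7.14 in PMEIox, 6.70, 7.07 and 6.41 in cnu1 and 6.54, 6.74 and 6.90 in cnu2, was lowest on cnu1 C and cnu2 A. Its difference between PMEIox and Col-0 had an interval of -0.33 to 0.33. LHCA1 (AT3G54890), in the lowest 20% of values, read 3.18, 2.98 and 2.65 in Col-0, 3.34, 3.03 and 3.24 in PMEIox, 3.05, 2.92 and 2.80 in cnu1 and 3.01, 3.03 and 2.60 in cnu2 and its ranges overlapped between Col-0 and each other genotype. In cnu2, 6 of 6 LHCA means were below Col-0 (median -0.32, and 49.6% of all loci had a lower mean), and in 5 of 6 the groups did not overlap (7.99% of all loci were lower without overlap).

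Rubisco small subunit genes passed in no comparison. RBCS1A (AT1G67090), the main small subunit gene of leaves, read 13.34 on 11 arrays and 13.16 on cnu1 C. Since all arrays share one distribution, a locus that keeps its place keeps its value: RBCS1A ranked 6 from the top on those 11 arrays and 9 on cnu1 C, and a change in its level could be seen only through its rank. RBCS1B (AT5G38430) read 6.49, 6.38 and 6.81 in Col-0, 7.41, 6.16 and 7.03 in PMEIox, 6.61, 5.68 and 5.92 in cnu1 and 6.21, 5.96 and 5.57 in cnu2. Its spread within genotypes, an SD of 0.44, exceeded that of 98.6% of all loci, and the PMEIox arrays alone ran from 6.16 to 7.41. RBCS1B differed from PMEIox by -0.80 ± 0.30 (SE, adjusted p = 0.159) in cnu1 and -0.96 ± 0.30 (SE, adjusted p = 0.121) in cnu2, and without PMEIox B both passed. RBCS3B (AT5G38410) differed by -0.61 ± 0.19 (SE, adjusted p = 0.0856) in cnu1 and -0.45 ± 0.19 (SE, adjusted p = 0.257) in cnu2, the first of which passed when the lowest 40% of loci were left out and with trend and robust settings. RBCS2B (AT5G38420) differed by -0.16 and -0.33. RBCS1B, RBCS2B and RBCS3B lie side by side and are near-identical, so their single values are uncertain.

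Among the 7 genes of chlorophyll synthesis, 0 passed in any comparison, and those closest to the threshold were CHLH and PORA. CHLH (AT5G13630) encodes the porphyrin-binding subunit of magnesium chelatase, the enzyme at the branch to chlorophyll. It read 10.11, 10.35 and 9.92 in Col-0, 9.66, 9.44 and 9.85 in PMEIox, 9.68, 9.64 and 9.18 in cnu1 and 9.38, 9.40 and 9.69 in cnu2. The PMEIox, cnu1 and cnu2 arrays all lay below those of Col-0, with differences of -0.48 ± 0.17 (SE, adjusted p = 0.133), -0.62 ± 0.17 (SE, adjusted p = 0.118) and -0.63 ± 0.17 (SE, adjusted p = 0.174). With trend and robust settings CHLH passed in both suppressors against Col-0. PORA, the protochlorophyllide oxidoreductase of etiolated tissue, read 9.35, 9.03 and 9.40 in Col-0, 9.39, 8.95 and 9.46 in PMEIox, 8.87, 8.59 and 8.36 in cnu1 and 8.82, 8.60 and 9.12 in cnu2. Col-0 and PMEIox overlapped, while the cnu1 values lay below both. PORA differed by -0.66 ± 0.18 (SE, adjusted p = 0.0514) between cnu1 and PMEIox and by -0.43 ± 0.18 (SE, adjusted p = 0.26) between cnu2 and PMEIox, and among fits without the replicate letter, the first passed with the lowest 40% of loci left out, with trend and robust settings and without PMEIox B, cnu1 A, cnu2 B or cnu2 C.

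PORB (AT4G27440) and PORC (AT1G03630), the oxidoreductases that remain in green tissue, differed between PMEIox and Col-0 by -0.04 and -0.14, with intervals of -0.36 to 0.27 and -0.49 to 0.21. GUN4 (AT3G59400), which activates magnesium chelatase, read 5.0, 5.0 and 4.64 in Col-0, 4.92, 4.62 and 4.53 in PMEIox, 4.90, 5.02 and 4.70 in cnu1 and 4.57, 4.89 and 4.47 in cnu2. Its groups overlapped in every comparison. HEMA1 (AT1G58290), for the first committed enzyme of the pathway, differed from Col-0 by -0.09 in PMEIox, -0.26 in cnu1 and -0.34 in cnu2. CHLI1 (AT4G18480), for the chelatase's ATPase subunit, differed from Col-0 by -0.01, -0.30 and -0.38. All 7 means were lower in cnu1 and in cnu2 than in Col-0.

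Seen together, most members lay below Col-0 in the suppressors, by small amounts at the median. Single differences ran from -0.75 (ELIP1) to 0.97 (LHCB1.4) in cnu1 and from -0.82 (ELIP2) to 0.23 (LHCB4.3) in cnu2. Of the 4 PIF genes, 2 were below Col-0 in each suppressor, with medians of -0.02 in cnu1 and -0.03 in cnu2. In cnu2, 36 of 41 means were below Col-0 (49.6% of all loci), and the median difference was -0.32. In 18 of 41 the cnu2 arrays lay wholly below those of Col-0 (7.99% of all loci) and in 2 wholly above (7.54% of all loci). In cnu1, 35 of 41 means were below Col-0 (49.3% of all loci), with a median of -0.25, and 9 of 41 were lower without overlap (9.54% of all loci). PMEIox had 28 of 41 means below Col-0 (50.9% of all loci), 12 above and 1 equal (RBCS1A), with a median of -0.10. There 11 of 41 were lower without overlap (11.3% of all loci). The median over all loci was 0.00 in each comparison. Members on the same array share that array's RNA, so these counts do not rest on 41 separate observations, and the comparisons share the Col-0 arrays. Without cnu1 C the cnu1 median against Col-0 was -0.14, and that against PMEIox moved from -0.15 to 0.00. The PMEIox median against Col-0 was -0.18 without PMEIox C and -0.06 without PMEIox A, the lowest and highest over the omissions. The cnu2 median against Col-0 ran from -0.39 to -0.27 over the omissions of each array.

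**Figure D3:**
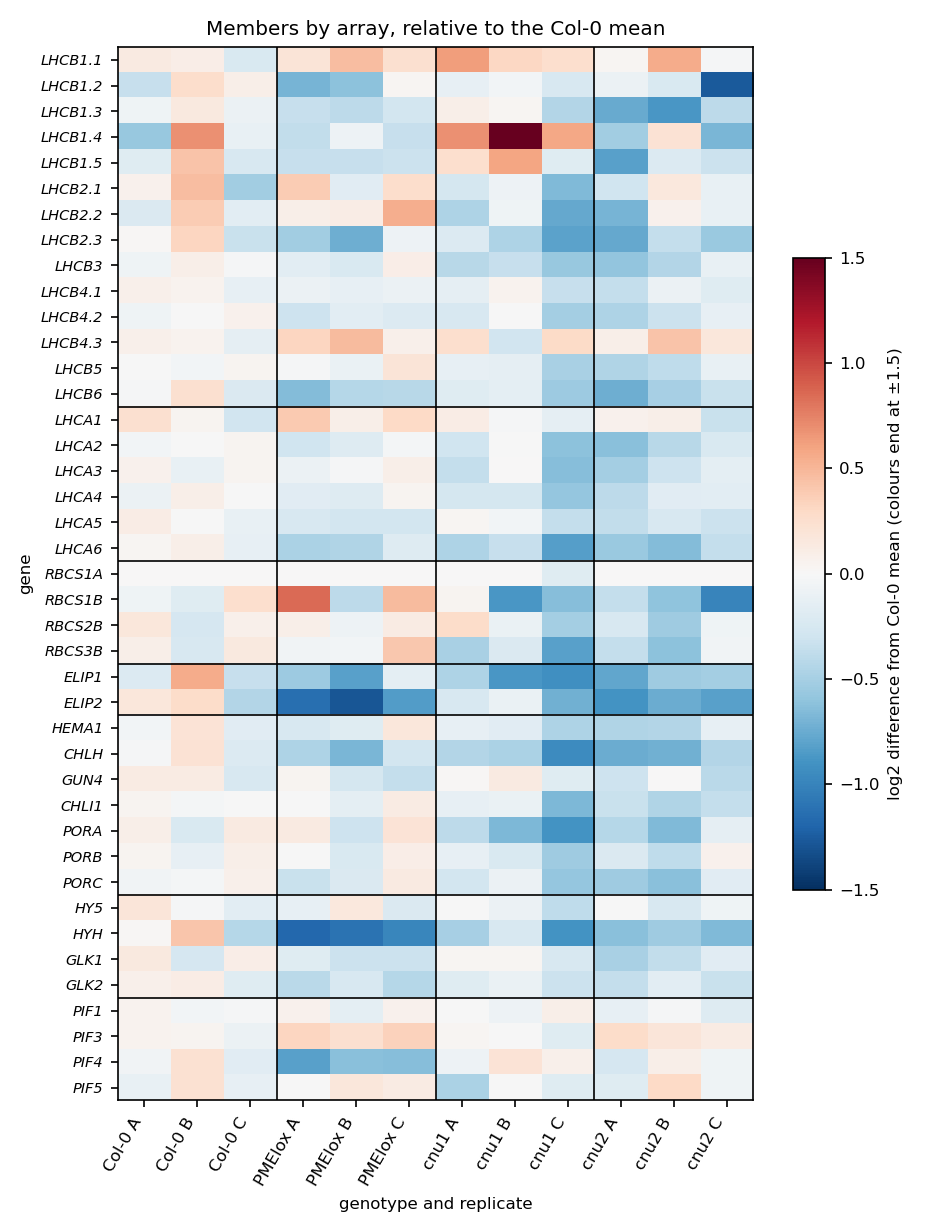
Log2 difference of each array (x axis) from the Col-0 mean for the 41 members (y axis, black lines between classes), with blue for lower and red for higher. HYH and ELIP2 are blue on all PMEIox arrays, PIF4 is blue on those arrays and near 0 in the suppressors, and cnu1 C is blue for most antenna and chlorophyll genes.

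Array C of cnu1 was low for nearly all antenna genes at once. On cnu1 C, 19 of 20 antenna genes had the lowest of the 3 cnu1 values, and 36 of 41 members did, where 34.4% of all loci did. The median deviation of the 20 genes from their genotype mean was -0.26 on cnu1 C, 0.07 on cnu1 A and 0.14 on cnu1 B. In cnu2, array A was lowest for 14 of 20 antenna genes (28.9% of all loci). In PMEIox, array C was highest for 12 of 20 (34.3% of all loci). In Col-0 the lowest value fell on array A for 7 of 20, on B for 2 and on C for 11. The single exception on cnu1 C was LHCB4.3 (AT2G40100), which was lowest on cnu1 B. On cnu1 C the summed level of the 10 seed markers was 10.54 on the log2 scale, beside 10.01 on cnu1 A and 8.99 on cnu1 B. That sum mostly followed CRA1, at 9.78 beside 8.77 and 6.77. By gene, 5 of 10 seed markers were highest and 4 lowest on cnu1 C (35.5% and 34.4% of all loci), with a median deviation of -0.009. The sum of the 8 root markers was 13.38 beside 13.21 and 13.17, and mostly followed PYK10, at 13.34 beside 13.16 and 13.11. By gene, 2 of 8 root markers were highest and 3 lowest there, with a median deviation of -0.002. The part of either marker list in the low antenna values was not tested.

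**Figure D4:**
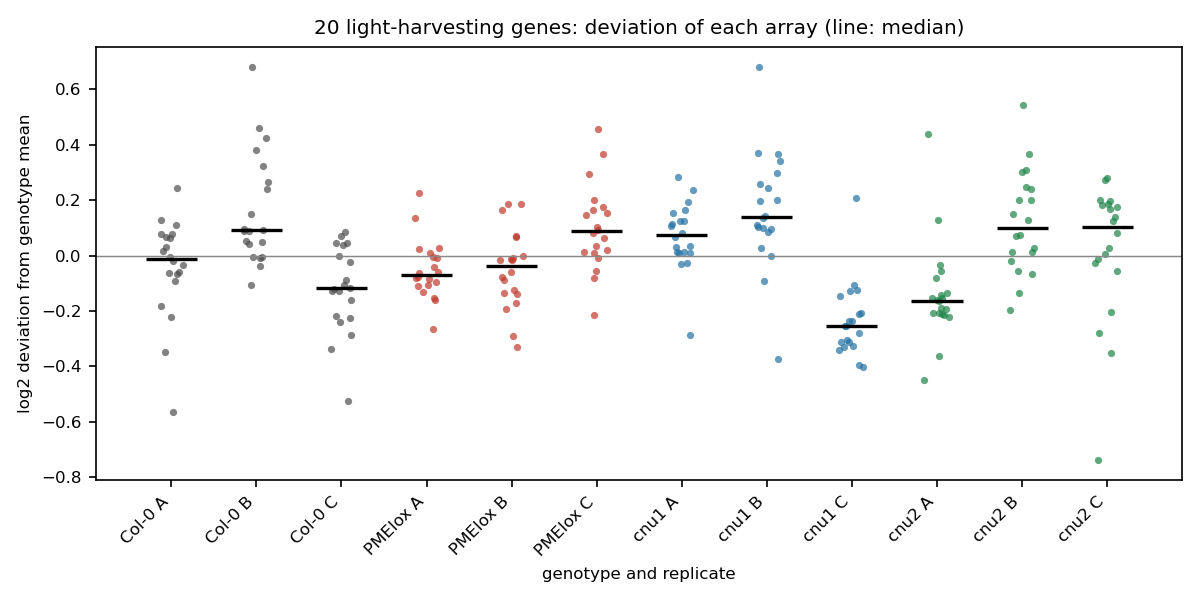
Deviation (y axis, log2) of 20 antenna genes (points) from their genotype mean on each of the 12 arrays (x axis), with the median as a line. The median is lowest on cnu1 C, at -0.26, and highest on cnu1 B, at 0.14.

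Replicate letters, which may mark harvest weeks, were tested across genotypes. The F-test of the letter in a fit with genotype called 0 of 41 members and 0% of all loci, with 8 of 41 members at an unadjusted p under 0.05 beside 8.85% of all loci. LHCB1.4 and PIF5 had the lowest unadjusted p of the members, 0.00051 and 0.00516 (adjusted p = 0.506 for both), and both stood highest on average on the B arrays. The pooled SD within genotypes had a median of 0.20 over the members and 0.17 over all loci. It was lowest for RBCS1A (0.05), which kept its rank on all arrays but cnu1 C, and then for PIF3 (0.08) and PIF1 (0.09). It was highest for LHCB1.4 (0.50), RBCS1B (0.44) and LHCB1.2 (0.41).

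Other genes of the same pathways were counted from lists that were chosen with earlier results of these data known. Of 32 further photoreceptor and light signalling genes, 0 rose and 2 fell in PMEIox against Col-0 (2.46% of all loci fell), 2 rose and 0 fell in cnu1 against PMEIox (3.54% rose), and 2 rose and 0 fell in cnu2 against PMEIox (1.78% rose). The same pair, SPA1 and FHL, made up each count. SPA1 (AT2G46340), which encodes the partner of COP1 in degrading HY5 and HYH, read 8.45, 8.55 and 8.13 in Col-0, 7.66, 7.75 and 7.63 in PMEIox, 8.30, 8.35 and 8.31 in cnu1 and 8.18, 8.32 and 8.12 in cnu2. All PMEIox arrays were below every other array. SPA1 fell in PMEIox by 0.69 ± 0.11 (SE, adjusted p = 0.00334) and rose against PMEIox by 0.64 ± 0.11 (SE, adjusted p = 0.00437) in cnu1 and 0.53 ± 0.11 (SE, adjusted p = 0.0271) in cnu2.

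FHL (AT5G02200), which helps to carry phytochrome A into the nucleus, read 7.73, 7.80 and 7.71 in Col-0, 7.31, 7.16 and 7.32 in PMEIox, 8.21, 8.0 and 8.38 in cnu1 and 7.90, 8.01 and 7.84 in cnu2. Here too the PMEIox arrays were the lowest of all, and those of both suppressors lay above those of Col-0. FHL fell in PMEIox by 0.48 ± 0.11 (SE, adjusted p = 0.0222) and rose against PMEIox by 0.93 ± 0.11 (SE, adjusted p = 0.000238) in cnu1 and 0.65 ± 0.11 (SE, adjusted p = 0.00621) in cnu2. Against Col-0 it differed by 0.45 ± 0.11 (SE, adjusted p = 0.091) in cnu1. Its fall in PMEIox lost its call in 4 of 12 omissions of an array, namely arrays A and B of Col-0 and of PMEIox, with an adjusted p of at most 0.0895. For SPA1 the cnu2 call was lost in 5 of 12, those of each PMEIox array, cnu2 A and cnu2 B, with an adjusted p of at most 0.105. These falls in PMEIox too were read on arrays high in seed markers, whose part was not tested. For SPA1 and FHL alike, the fall and the rises share the PMEIox arrays, so they are not independent of each other.

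Of 25 further photosystem genes, 0 passed in PMEIox against Col-0 (median -0.11) and in cnu1 against PMEIox (median -0.19), while 2 fell in cnu2 against PMEIox (median -0.20, and 1.48% of all loci fell). PSBQ1 (AT4G21280), for an extrinsic protein of the oxygen-evolving complex, fell there by 0.54 ± 0.12 (SE, adjusted p = 0.0371) and PSBY (AT1G67740), for a small subunit of photosystem II, by 0.52 ± 0.13 (SE, adjusted p = 0.044). The PSBQ1 call was lost in 7 of 12 omissions of an array (Col-0 A and each PMEIox and cnu2 array) and the PSBY call in 9 of 12 (Col-0 B and cnu1 A besides), with adjusted p up to 0.113 and 0.137. Against Col-0, 25 of 25 means were lower in cnu1 and 25 of 25 in cnu2, with medians of -0.27 and -0.36 and 0 calls by limma, and 11 and 20 were at an unadjusted p under 0.05 (13.9% and 11.3% of all loci). On cnu1 C all 25 had the lowest of the 3 cnu1 values, as most antenna genes did.

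Of 27 further genes of tetrapyrrole synthesis and 7 relatives of the antenna genes, 0 passed in any of the 6 comparisons. Their medians were -0.07 and -0.15 in PMEIox against Col-0, -0.24 and -0.36 in cnu1 against Col-0, and -0.30 and -0.39 in cnu2 against Col-0.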

How the data were processed

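RNA from whole dark-grown seedlings was made into biotinylated cRNA and read on 3 Affymetrix arrays per genotype, per the labels' protocols. The deposited values were read as log2 intensities from their range. The authors had given all 12 arrays identical sorted values. Array type, background correction, probe summary, software and annotation are not given in the sources used here. The number of arrays limits precision, and no detection or saturation flags were used.

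limma (version 3.58.1, R 4.3.3) fitted a mean for each of the 4 genotypes (lmFit) and moderated the variances (eBayes), with 8 residual degrees of freedom and a prior of 4.06. Two-sided p-values received the Benjamini-Hochberg correction across the 27827 loci, and an adjusted p under 0.05 was called. Intervals are 95% moderated t intervals. Each difference is written as genotype minus comparator. The letter test added the replicate letter to genotype. The fit was tested on simulated data with independent noise for each locus and array, so shifts shared within an array were not covered. Members and lists were chosen with earlier results of these data known. Named genes are the transgene, BRI1 and RLP44, the members (per array where called or most different within their class), and up to 4 called genes of each other list. All 163 listed genes were matched by locus in the TAIR10.1 gene table, which also gave neighbouring genes.

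Alternatives were median centring, centring on 10 reference genes, leaving out the lowest 40% of loci, a trended, robust eBayes (statmod 1.5.0), the compared genotypes alone, the replicate block and leaving out each array. The planned motif search and protein comparison were not run. Figures used matplotlib 3.10.9 in Python 3.11.15.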

Additional observations from a re-analysis of the deposited data

How the results depend on the processing

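Over the alternatives, the calls of HYH, ELIP2 and PIF4 in PMEIox against Col-0 and of PIF4 in cnu1 against PMEIox were made under every setting run, and no called gene changed direction. Median centring changed no count. Leaving out the lowest 40% of loci leaves fewer loci to adjust over, and 36 members were kept. It gave 6 called members in PMEIox against Col-0, 5 in cnu1 against PMEIox, 1 in cnu1 against Col-0 and 8 in the F-test. Over all kept loci the calls rose too, to 1870, 2321, 439 and 2429, beside 1460, 1792, 173 and 1674 in the main fit. The member counts were 6, 6, 4 and 11 with trend and robust settings. There were also 3 in cnu2 against Col-0 and 1 in cnu1 against cnu2. Over all loci, 2043 were called in PMEIox against Col-0 under these settings. The compared genotypes alone gave 0 in cnu2 against PMEIox. Deviations from group means correlated over 0.1 in 7 of 18 pairs of same-lettered arrays (from -0.14 to 0.19, median 0.08). Pairs with different letters did so in 3 of 36 (from -0.13 to 0.13, median -0.03). Same-lettered arrays were thus somewhat more alike. The main fit nevertheless left the letter out, and a block for it was run as an alternative. The replicate block gave 4 in PMEIox against Col-0 (with GLK2), 4 in cnu1 against PMEIox (with LHCB1.4 and PORA), 1 in cnu1 against Col-0 and 1 in cnu1 against cnu2, LHCB1.4 in both of these, and ended the calls of ELIP2 in cnu1 against PMEIox (adjusted p = 0.0587) and of PSBQ1 and PSBY in cnu2 against PMEIox (adjusted p = 0.0545 and 0.0586). Centring on the reference genes ended the calls of ELIP2 and PIF3 in cnu1 and of SPA1 in cnu2 against PMEIox (adjusted p = 0.0592, 0.0655 and 0.0589), and moved the reference by at most 0.05 on the log2 scale. With the compared genotypes alone the calls of ELIP2 and PIF3 in cnu1 and of PSBY and SPA1 in cnu2 against PMEIox also ended (adjusted p from 0.0545 to 0.0957).

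Leaving out 1 array at a time gave 3 called members throughout in PMEIox against Col-0, from 1 (without PMEIox A, PMEIox C, cnu1 B or cnu2 A) to 3 in cnu1 against PMEIox, from 0 (without PMEIox A, PMEIox C, cnu2 B or cnu2 C) to 1 in cnu2 against PMEIox, where the 1 without PMEIox B was RBCS1B, and 0 in cnu1 against Col-0, in cnu2 against Col-0, in cnu1 against cnu2 and for the replicate letter. The F-test gave from 0 (without PMEIox A), and 1 without Col-0 A, to 5 (without cnu2 C). Why the counts moved was not tested, beyond the fewer arrays or loci.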
